A study of Mus musculus with 27 samples.

Results

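Imprinted retrogenes are short, intron-poor genes that arose when a messenger RNA was copied back into the genome, inside an intron of a host gene, and that are expressed from the paternal copy. Among the 8 genes described here, Mcts2 lies within H13 and Nap1l5 within Herc3; Nnat lies within Blcap in the same arrangement, and Inpp5f and Trappc9 are known to hold an imprinted start in an intron. The members were the runs of measured positions that fell between 5000 bp before the start and 1000 bp past the end of these genes, with gaps of at most 200 bp and a methylation level in all 27 libraries. This gave 9 runs, out of 18447 such runs with at least 3 positions in the whole table. In that genome-wide set 17903 runs were autosomal.

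The libraries were made by reduced representation bisulfite sequencing (RRBS), in which DNA is cut with a restriction enzyme, bisulfite converted and sequenced, so that CpG-dense stretches around gene starts are favoured. The cells were C2C12, a subcloned mouse muscle line whose myoblasts fuse into myotubes. All were differentiated in medium with 2% horse serum and then given a 2 h shock with 50% horse serum, a treatment that brings the clocks of cultured cells into phase. The groups were 9 time points after the shock, at 12, 18, 24, 30, 36, 42, 48, 54 and 60 h, with 3 libraries each, and all of them carry the same treatment. The labels do not say whether the 3 libraries came from separate cultures, so p-values measure the spread between these libraries, which may be technical. The mean level of a library lay between 11.4% and 12.7%, and the share of positions at exactly 0 between 5.15% (replicate 3 of 24 h) and 25.4% (replicate 3 of 12 h). Read depth is unknown, since the table gives levels without counts.

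In the maternal germ line the starts of Mcts2, Nap1l5, Nnat and of the intronic transcripts of Inpp5f and Trappc9 gain DNA methylation, which is kept on the maternal copy after fertilisation, while the host's own start stays free of methylation on both copies. Such a start therefore shows an intermediate level when both copies are read together. The zinc finger protein ZFP57 is known to bind methylated TGCCGC motifs at imprinted control regions and to protect them. A level measured on bulk DNA does not show which parental copy carried the methyl groups. Methylation of 1 copy in every cell and of both copies in some cells cannot be told apart here.

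The promoters of member genes that the measured positions reach are printed from RefSeq (GRCm38.p6, the assembly that mm10 names). The contrast between retrogene and host can be read on them. Each runs from 250 bp before to 50 bp after the annotated start of that promoter. At H13 and Inpp5f this start lies downstream of the gene start from which distances along the runs are counted. Capitals mark the CpGs with a value in the deposited table. The Mcts2 promoter (chr2:152686898-152687197, plus strand) had 18 of its 25 CpGs measured, the H13 promoter (chr2:152669211-152669510, plus strand) 3 of 21, the Nnat promoter (chr2:157559828-157560127, plus strand) 4 of 17 and the Inpp5f promoter (chr7:128611115-128611414, plus strand) 4 of 15.
Mcts2: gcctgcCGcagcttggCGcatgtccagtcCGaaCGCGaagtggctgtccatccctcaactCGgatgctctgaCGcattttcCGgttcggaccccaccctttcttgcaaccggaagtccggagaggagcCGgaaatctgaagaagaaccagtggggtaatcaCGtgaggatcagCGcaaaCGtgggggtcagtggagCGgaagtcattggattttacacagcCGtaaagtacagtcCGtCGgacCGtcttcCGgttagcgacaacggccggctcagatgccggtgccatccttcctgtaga
H13: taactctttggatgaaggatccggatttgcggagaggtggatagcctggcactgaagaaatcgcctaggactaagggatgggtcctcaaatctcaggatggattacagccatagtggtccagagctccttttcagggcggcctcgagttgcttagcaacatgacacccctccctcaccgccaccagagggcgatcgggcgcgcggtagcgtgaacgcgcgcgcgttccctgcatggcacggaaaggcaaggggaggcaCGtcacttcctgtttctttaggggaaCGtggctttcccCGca
Nnat: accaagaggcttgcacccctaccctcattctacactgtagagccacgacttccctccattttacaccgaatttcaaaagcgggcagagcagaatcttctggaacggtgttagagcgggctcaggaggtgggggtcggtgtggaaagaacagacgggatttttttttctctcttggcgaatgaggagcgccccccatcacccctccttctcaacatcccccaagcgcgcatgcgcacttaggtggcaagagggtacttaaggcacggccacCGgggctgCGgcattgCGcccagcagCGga
Inpp5f: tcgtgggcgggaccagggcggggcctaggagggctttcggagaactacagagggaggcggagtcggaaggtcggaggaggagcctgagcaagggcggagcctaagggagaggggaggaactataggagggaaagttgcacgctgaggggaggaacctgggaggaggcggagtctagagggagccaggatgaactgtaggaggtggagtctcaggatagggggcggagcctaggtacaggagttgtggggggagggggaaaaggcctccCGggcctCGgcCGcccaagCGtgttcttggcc
Position means over 27 libraries on these CpGs ran from 39.4% to 49.6% at Mcts2, from 1.05% to 1.83% at H13, from 96.6% to 97.0% at Nnat and from 4.57% to 6.56% at Inpp5f.

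The promoter of Nap1l5 (chr6:58907077-58907376, minus strand) is printed with TGCCGC in capitals, since no CpG of it had a level and the measured run of the gene begins 248 bp past the start.
Nap1l5: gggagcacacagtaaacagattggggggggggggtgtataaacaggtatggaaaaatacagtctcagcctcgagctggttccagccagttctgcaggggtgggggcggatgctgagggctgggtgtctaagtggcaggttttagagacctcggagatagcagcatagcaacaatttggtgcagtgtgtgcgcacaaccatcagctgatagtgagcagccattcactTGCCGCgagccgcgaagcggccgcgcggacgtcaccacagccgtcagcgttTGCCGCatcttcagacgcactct
The motif TGCCGC was searched on both strands, its reverse complement being GCGGCA. It occurred in the promoters of Mcts2, Nap1l5 and Nnat: once at Mcts2, first base 247 bp before the start, 2 times at Nap1l5 and once, in reverse, at Nnat, first base 27 bp past the start. None of the hosts H13, Blcap and Inpp5f had a match in this window. A further pair, Zrsr1 within Commd1, went the other way: the printed host promoter held 1 match, in reverse, and the retrogene promoter 0. For Herc3 the promoter table holds another start, about 2 kb from the one measured, with no match; the measured start was not searched, and Trappc9 is not in the promoter table. Of 32851 RefSeq promoters of this length, 11.6% held the motif, and of the 11378 with at least 15 CpGs 25.1% did. The CpG inside the motif had a mean level of 39.8% at Mcts2 and 96.9% at Nnat, close to the levels of its neighbours. Neighbouring levels in the deposited table run close together in general, so this closeness says nothing about the motif. The motif CpGs of Nap1l5 were not measured. A match of these letters is a description of the sequence and not a binding site.

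Methylation separated the 2 retrogenes from their hosts. The start of Mcts2, a retrocopy of the X-linked translation factor gene Mcts1, had a level of 41.8% ± 8.64 (SD, n = 27). The start of its host H13, which encodes the signal peptide peptidase, stood at 2.68% ± 2.77. At Nap1l5, an intronless gene of the nucleosome assembly protein family, the level was 69.6% ± 6.94, and at the start of its host Herc3, a HECT-type ubiquitin ligase gene, it was 2.20% ± 1.17. Nnat, which encodes the membrane proteolipid neuronatin, had 96.7% ± 2.07 at its start. The host starts of Inpp5f, a phosphoinositide phosphatase gene, and Trappc9, a gene for a subunit of the vesicle-tethering complex TRAPP, stood at 3.27% ± 1.51 and 3.72% ± 1.10.

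Mcts2 (chr2:152687148-152687946, plus strand) lies in the body of H13 (chr2:152669422-152708668, plus strand). Its run (chr2:152686813-152687149) held 38 positions over 337 bp, from 335 bp before to 1 bp past the start of Mcts2, which is 17391 to 17727 bp from the start of the host. The H13 run (chr2:152669470-152669967) held 32 positions from 48 to 545 bp past its start. Over the 27 libraries the Mcts2 run had a lowest level of 18.6%, a median of 41.0% and a highest of 61.5%, and the H13 run a lowest of 0%, a median of 1.51% and a highest of 9.95%. The ranges did not overlap, and 26 of the 27 Mcts2 levels lay between 25% and 75%, while all 27 H13 levels lay under 10%. Mcts2 exceeded H13 by 39.1 ± 9.68 points (SD, n = 27), with Mcts2 higher in 27 of 27 libraries (sign-flip permutation test, two-sided, p = 1e-05, the smallest that 100000 resamples can give; 1.5e-05 after Benjamini-Hochberg adjustment over 3 pairs). In single libraries the difference lay between 10.4 and 61.5 points. A further 5 positions of the H13 window, 1940 to 2002 bp past the start, had values in 19 libraries and were left out; their means ran from 10.6% to 18.8%.

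Nap1l5 (chr6:58905233-58907126, minus strand) lies on the opposite strand to Herc3 (chr6:58831455-58920398, plus strand). The Nap1l5 run (chr6:58906634-58906878) held 23 positions over 245 bp, all inside the gene, 248 to 492 bp past its start and 75179 to 75423 bp from the start of Herc3. The Herc3 run (chr6:58831420-58831999) held 80 positions, from 35 bp before to 544 bp past the start that the gene table gives; the promoter table lists another Herc3 start about 2 kb downstream, with no measured CpG. Nap1l5 levels had a lowest value of 55.2%, a median of 70.3% and a highest of 81.2%, and Herc3 levels a lowest of 0.217%, a median of 1.88% and a highest of 5.70%. Here too the ranges did not overlap. Nap1l5 exceeded Herc3 by 67.4 ± 6.83 points (SD, n = 27), with a range of 52.7 to 79.7 points, and was higher in 27 of 27 libraries (sign-flip permutation test, two-sided, p = 1e-05, the smallest that 100000 resamples can give, adjusted 1.5e-05 over 3 pairs).

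Nnat (chr2:157560078-157562525, plus strand) lies on the opposite strand to Blcap (chr2:157556362-157566361, minus strand), a gene named for its reduced expression in bladder cancer. The window of Blcap held the same 3 runs as that of Nnat and no other, and the nearest of them began 4502 bp from the start of Blcap. The host start was therefore not measured, and Nnat could not be set against it. The Nnat start run (chr2:157560098-157560478) held 29 positions from 20 to 400 bp past the start, with a lowest level of 89.5%, a median of 96.9% and a highest of 99.6%; 26 of 27 libraries were over 90%. The run in the body of Nnat (chr2:157561444-157561859, 18 positions, 1366 to 1781 bp past the start) had 93.6% ± 3.33, and the run upstream of it (chr2:157558247-157558304, 4 positions, 1831 to 1774 bp before the start) 90.7% ± 5.68. None of the 3 runs had a library between 25% and 75%. A further 5 positions of the window had values in 25 or 26 libraries and were left out; their means ran from 58.9% to 96.2%. The start run exceeded the body run by 3.12 ± 3.78 points (SD, n = 27), in 23 of 27 libraries (sign-flip permutation test, two-sided, p = 3e-05, adjusted 3e-05 over 3 pairs). That difference rested on the first 2 positions of the body run, which stood at 75.8% ± 15.4. Against the other 16 positions (95.8% ± 3.70) it was 0.889 ± 4.42 points, with the start higher in 14 of 27 libraries.

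**Figure D1:**
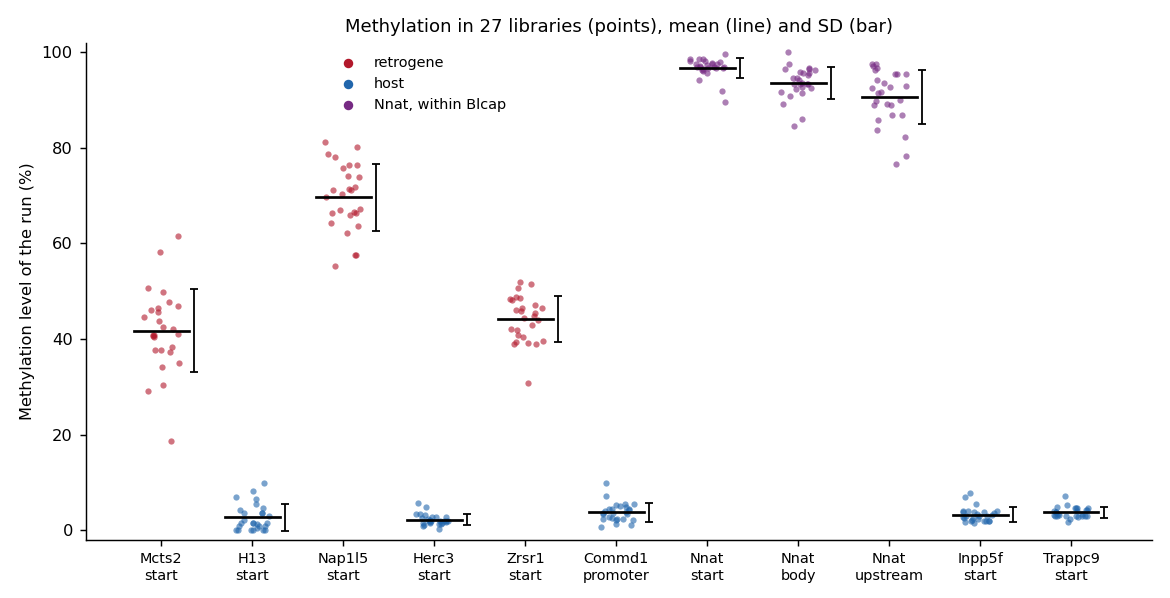
Methylation level (%, vertical axis) of each run in each of the 27 libraries (points), with the mean (horizontal line) and SD (bar), for the retrogene and host pairs on the left (a pair at Zrsr1 and Commd1 included), the 3 Nnat runs and the starts of Inpp5f and Trappc9. Mcts2 (mean 41.8%), Nap1l5 (69.6%) and Zrsr1 (44.2%) lie apart from H13 (2.68%), Herc3 (2.20%) and Commd1 (3.75%). The 3 Nnat runs lie between 90.7% and 96.7%. The Commd1 run lies at a promoter past the gene start and not at that start.

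The imprinted intronic starts of Inpp5f and Trappc9 were not reached. In Inpp5f (chr7:128611181-128696436, plus strand; 85256 bp) the 1 run (chr7:128611383-128612071) held 69 positions, 202 to 890 bp past the start of the host, and no other position of the window had a value. In Trappc9 (chr15:72589620-73061238, taken as minus strand from knowledge of the locus; 471619 bp) the 1 run (chr15:73060581-73061135) held 58 positions, 103 to 657 bp past the start. Peg13 (chr15:72805602-72810324), the imprinted non-coding gene inside Trappc9, had 0 measured positions within 5000 bp. Levels of the Inpp5f run had a lowest value of 1.60%, a median of 3.01% and a highest of 7.80%, and those of the Trappc9 run a lowest of 1.68%, a median of 3.39% and a highest of 7.19%. All 27 libraries were under 10% in both, as at H13 and Herc3. Trappc9 minus Inpp5f was 0.447 ± 1.98 points, with Trappc9 higher in 17 of 27 libraries, so these host starts were not set apart beyond their spread.

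The measured runs of the genes within hosts also differed from each other. Nap1l5 was higher than Mcts2 in 27 of 27 libraries, by 27.9 ± 10.0 points, and Nnat higher than Nap1l5 in 27 of 27, by 27.1 ± 7.28 points (SD, n = 27; descriptions, not tested). The order of levels from low to high was thus Mcts2, Nap1l5, Nnat in every library. These runs cover unlike places. The Mcts2 run ends 1 bp past the gene start, while that of Nap1l5 lies 248 to 492 bp and that of Nnat 20 to 400 bp past it. Whether the order would hold at matched places was not tested. Among host starts H13 minus Herc3 was 0.475 ± 3.35 points and Inpp5f minus H13 0.597 ± 3.30 points, with both signs present among the libraries.

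Along the runs the levels were even in some genes and sloped in others. At Mcts2 the position means stayed between 39.4% (214 bp before the start) and 49.6% (122 bp before the start). At Nap1l5 they were higher away from the start, with 78.2% ± 8.16 at 400 to 499 bp, against 65.4% ± 9.81 at 200 to 299 bp (higher in 22 of 27 libraries). The Inpp5f run was low at 600 to 699 bp (1.79% ± 1.34) and reached 16.1% ± 8.89 at 800 to 899 bp, higher in 24 of 27 libraries, with 19.9% at its last position. In Trappc9 the stretch from 500 to 599 bp had 8.51% ± 2.88, against 1.76% ± 0.858 at 200 to 299 bp, and was higher in 27 of 27 libraries. Neighbouring levels in the deposited table run close together over short distances, and these stretches were chosen after their values were seen, so the values are descriptions.

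**Figure D2:**
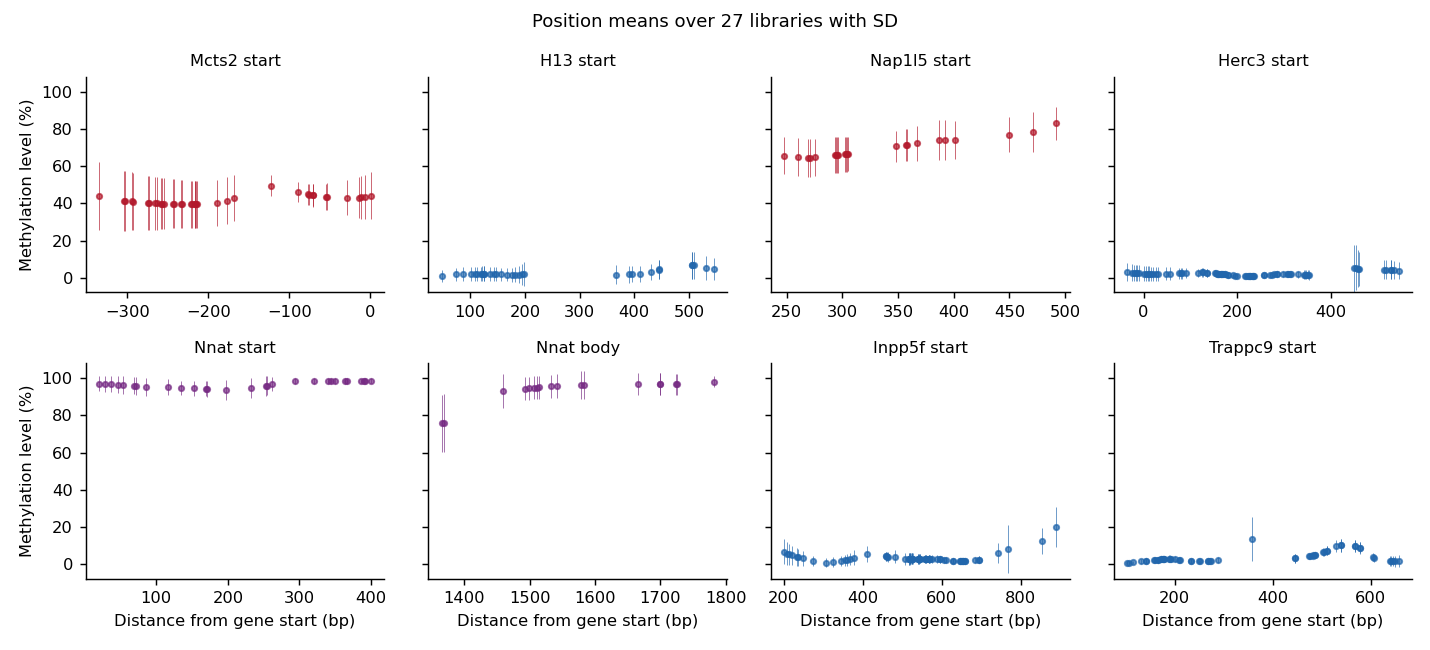
Mean methylation level (%, vertical axis) of each position over 27 libraries, with its SD as a bar, against the distance from the start of the named gene in bp (horizontal axis), in 8 runs. Mcts2 stays between 39.4% and 49.6%, Nap1l5 ends at 83.1%, the first 2 positions of the Nnat body run lie at 75.8%, and the Inpp5f run ends at 19.9%.

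The spread between libraries was widest at Mcts2. Its SD of 8.64 points may be set beside the 1522 autosomal runs whose mean lay within 10 points of it, whose SDs had a median of 6.45 points and quartiles of 4.71 and 9.02. For Nap1l5 the SD of 6.94 points stood beside a median of 6.13 (quartiles 4.52 and 8.39; 1045 runs), and for the start of Nnat 2.07 points beside 3.66 (2.67 and 5.03; 729 runs). Mcts2 and Nap1l5 thus lay inside the quartiles of runs of like level, and the start of Nnat under them. H13, with 2.77 points, lay just above the upper quartile of its like runs (2.72 points; 11212 runs), as did the run upstream of Nnat with 5.68 points (upper quartile 5.51; 1060 runs), and Herc3 (1.17 points) below the lower one (1.21 points). For the low runs this depends on the width of the set. Among the 8465 autosomal runs with a mean of 0 to 5% the quartiles were 1.10 and 2.14 points, with Herc3 inside them and H13 above.

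Taken as a whole, the upstream part of the Mcts2 run varied more than the part near the start. The 25 positions from 335 to 168 bp before the start had 40.4% ± 13.1 (SD, n = 27). The 13 positions from 122 bp before to 1 bp past it had 44.5% ± 7.34. This split was not planned. Within the near part the SD of single positions was not even. It fell to 5.25 points and rose again to 12.5 points at the last position, 1 bp past the start. The lowest library, replicate 2 of 30 h, had 10.9% upstream and 33.3% near the start. The highest, replicate 1 of 60 h, had 68.9% upstream and 47.4% near the start, and replicate 3 of 60 h had 17.4% and 55.5%. In these 3 libraries, chosen after their values were seen, the level near the start lay closer to its mean than the level upstream.

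**Figure D3:**
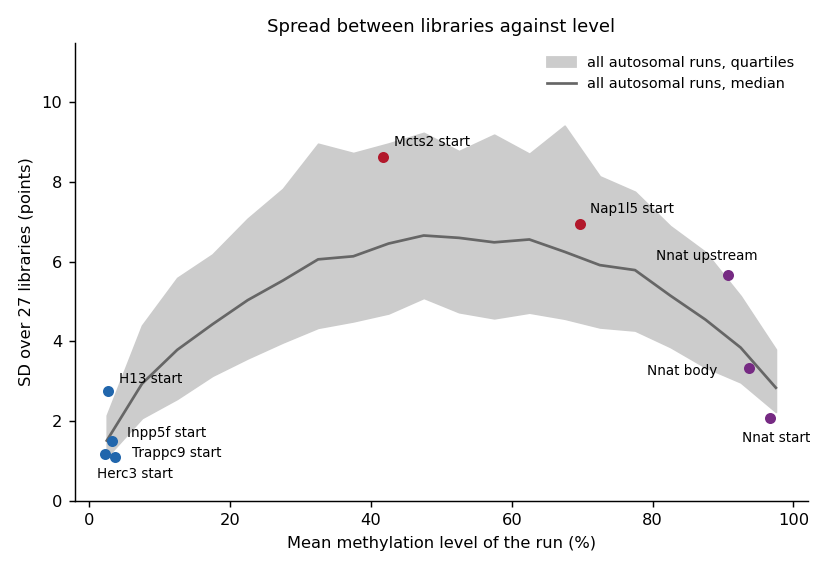
SD over 27 libraries (points, vertical axis) against mean methylation level (%, horizontal axis) for the 9 runs, on the quartile band (grey) and median (line) of all autosomal runs by level. Mcts2 (8.64 points) and Nap1l5 (6.94) lie in the upper part of the band, H13 (2.77) and the run upstream of Nnat (5.68) at or above its upper edge, and the start of Nnat (2.07) under it.

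Whether the levels followed the time after the serum shock was the question of the time course. At the start of Mcts2, replicates 1, 2 and 3 had 34.2%, 41.0% and 29.1% at 12 h, 47.0%, 40.8% and 43.8% at 18 h, and 42.0%, 46.5% and 49.8% at 24 h. They had 44.6%, 18.6% and 42.5% at 30 h, 37.7%, 38.3% and 40.4% at 36 h, and 58.3%, 50.6% and 45.7% at 42 h. The last values were 46.0%, 40.6% and 37.2% at 48 h, 40.9%, 37.6% and 35.0% at 54 h, and 61.5%, 47.8% and 30.4% at 60 h. The mean was lowest at 12 h (34.7% ± 5.94) and highest at 42 h (51.6% ± 6.34; SD, n = 3), and at 60 h the 3 libraries included the highest level of the run and 1 of its 3 lowest. The pooled SD within time points was 8.04 points, against a range of time point means of 16.8 points.

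A 24 h cosine at Mcts2 had an amplitude of 5.88 points (SE 2.12, upper 95% limit 11.4) and an unadjusted p of 0.0430, which did not pass over all runs (limma, adjusted p = 0.980). Of the 9 runs 0 passed for a rhythm and 1 had an unadjusted p under 0.05. Among all 18447 runs 0% passed and 4.34% had an unadjusted p under 0.05. As a factor, time gave the Mcts2 run an adjusted p of 0.990 (limma), and 0 of 9 runs passed or had an unadjusted p under 0.05, against 0.00542% and 4.30% of all runs. Amplitudes of the 9 runs ran from 0.0925 points at Inpp5f to 5.88 points at Mcts2.

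At the start of Nap1l5, replicates 1, 2 and 3 had 66.4%, 78.7% and 66.5% at 12 h, 57.5%, 76.3% and 70.3% at 18 h, and 55.2%, 81.2% and 71.3% at 24 h. They had 71.1%, 57.5% and 78.0% at 30 h, 71.3%, 74.1% and 66.6% at 36 h, and 67.3%, 64.2% and 75.9% at 42 h. The values were 63.7%, 66.9% and 62.3% at 48 h, 69.7%, 66.0% and 74.0% at 54 h, and 71.8%, 80.2% and 76.3% at 60 h. The lowest time point mean was 64.3% ± 2.39 at 48 h and the highest 76.1% ± 4.17 at 60 h, a range of 11.8 points beside a pooled SD within time points of 7.55 points. The amplitude was 2.91 points (SE 1.83, upper 95% limit 7.68; limma, adjusted p = 0.980). The lowest and the highest library of the run were both 24 h libraries.

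At the start of Nnat the lowest time point mean was that of 60 h (95.3% ± 5.04) and the highest that of 24 h (98.2% ± 1.17; SD, n = 3). At 60 h replicate 1 stood at 89.5%, below the other two (97.9% and 98.5%), and the same library was the highest of all at Mcts2. Across the 27 libraries the Mcts2 and Nnat starts had a Pearson r of -0.42 (permutation p = 0.0363, adjusted 0.218 over 6 relations) and a Spearman rho of -0.31 (permutation p = 0.113, adjusted 0.339). Without the 2 libraries farthest from the Mcts2 median r was -0.12 (permutation p = 0.563), so the relation rests on those libraries. Mcts2 with Nap1l5 had r = 0.19 (rho 0.19; permutation p = 0.352 and 0.344, adjusted 0.528 and 0.605; r = -0.03 without the 2 farthest libraries). Nap1l5 with Nnat had r = -0.01 (rho 0.04; permutation p = 0.943 and 0.848, adjusted 0.943 and 0.848; r = 0.07 without the 2 farthest). Correlations of Mcts2, Nap1l5 and Nnat with the mean level of the library were 0.10, 0.28 and 0.23 (rho 0.17, 0.39 and 0.13; smallest adjusted permutation p = 0.264), and 0.19, 0.19 and -0.001 without the 2 farthest libraries.

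Set end against end, 60 h and 12 h did not differ at any of the 9 runs by the test. Mcts2 had 46.6% ± 15.6 at 60 h and 34.7% ± 5.94 at 12 h (SD, n = 3 each), a difference of 11.8 points (SE 6.31, lower 95% limit -1.37; limma, adjusted p = 0.940). Without replicate 1 of 60 h it was 4.34 points and without replicate 3 of 60 h 19.9 points (limma, adjusted p = 1 and 0.599). Nap1l5 had 76.1% ± 4.17 at 60 h and 70.5% ± 7.11 at 12 h, a difference of 5.56 points (95% interval -6.83 to 18.0; limma, adjusted p = 1). It was 3.49 points without replicate 1 of 12 h and 9.67 points without replicate 2 of 12 h. The host starts differed by no more than 1.29 points in size between 60 h and 12 h, with Trappc9 at 3.98% ± 0.843 at 60 h and 5.27% ± 1.94 at 12 h. Among all runs 0% passed and 5.33% had an unadjusted p under 0.05, against 0 of 9 here. A linear trend passed in 0 of the 9 runs (0 of 9 at an unadjusted p under 0.05), against 0% and 4.99% of all runs. The highest slope was 4.79 points per 48 h at Mcts2 (SE 5.02, 95% interval -5.51 to 15.1) and the lowest -1.98 in the body of Nnat (SE 1.95, -5.98 to 2.02; limma, adjusted p = 0.992 for both). The Mcts2 slope was 1.27 without replicate 1 of 60 h and 7.59 without replicate 3 of 60 h. The slope in the body of Nnat was -0.632 without replicate 3 of 60 h and -2.89 without replicate 2 of 24 h.

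**Figure D4:**
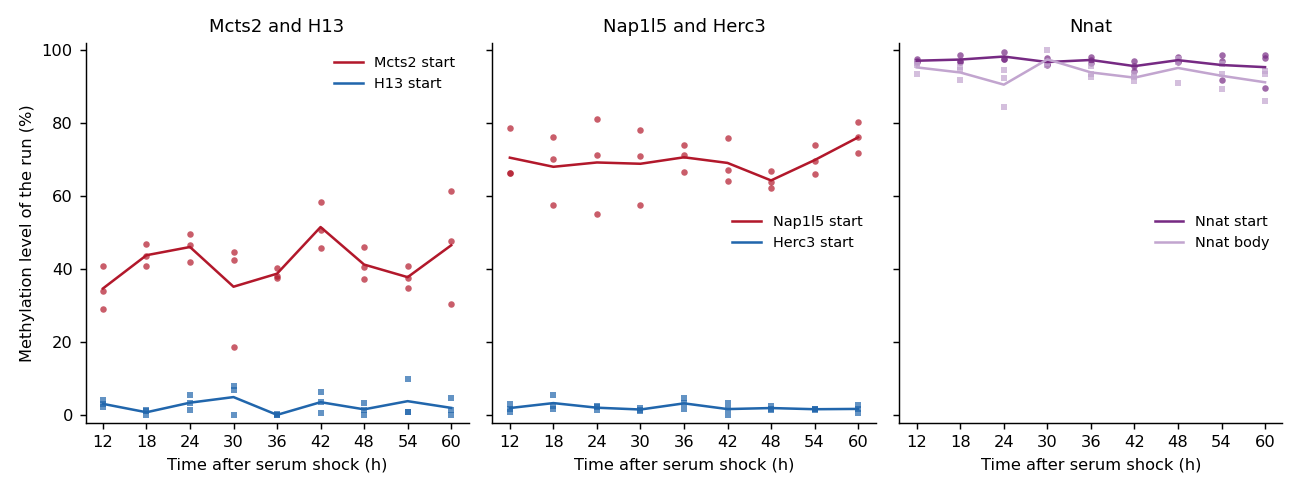
Methylation level (%, vertical axis) of single libraries (points) and time point means (lines) against hours after the serum shock (horizontal axis), for Mcts2 with H13, Nap1l5 with Herc3, and the start and body of Nnat. At every time point all 3 libraries of Mcts2 and Nap1l5 lie above those of their hosts, and the 3 Mcts2 libraries of 60 h spread from 30.4% to 61.5%.

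Of 39 other imprinted genes, 17 had a run at their start, in 16 separate runs. Their median level was 45.5%, with 11 of 16 between 25% and 75%, 3 under 10% (Zim1, Copg2 and Ube3a) and 1 over 75%. The run shared by Peg3, a zinc finger gene, and its neighbour Usp29 stood at 46.6% ± 21.0, that of Igf2r, a receptor gene, at 46.9% and that of Grb10, a gene for a signalling adaptor, at 58.9%. Start runs of all genes with a known strand (8987 runs) had a median of 3.61%, with 15.1% of them between 25% and 75%. Of the 16 runs 0 passed for a rhythm, a time difference, a trend or 60 h against 12 h. At an unadjusted p under 0.05 there were 1 for the rhythm (Gnas, limma, adjusted p = 0.980) and 1 for 60 h against 12 h (the run shared by Peg3 and Usp29, limma, adjusted p = 0.876), and 0 for a time difference and for a trend. Magel2, a gene of the Prader-Willi region, had 70.6% ± 4.58, close to Nap1l5, and Nhlrc1, a ubiquitin ligase gene, had 83.5% ± 4.96; none of the 16 reached the level of Nnat.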

How the data were processed

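Methylation was measured by RRBS in 27 libraries of C2C12 cells. The authors deposited 1 table of methylation levels as a fraction from 0 to 1, with 1 row per position and 1 column per library, per the file headers. Trim Galore 0.4.0, cutadapt 1.9.1, Bismark 0.14.4, Bowtie2 and the build mm10 are named in the submitters' processing notes. The labels state no settings and do not say whether the levels were smoothed. Position means changed gradually between neighbours, as with 0.896%, 0.897% and 0.906% at 217, 218 and 223 bp past the Herc3 start. The level of a single position may therefore not be independent of its neighbours. The table has no read counts, so depth is unknown and no interval from counts is given. Libraries lacked a value at between 1640 and 21925 of 937644 positions, most in replicate 3 of 12 h; the 871894 positions (93.0%) that none lacked were used, as percent. No pair of libraries was identical (Pearson r 0.876 to 0.957 over 351 pairs).

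Positions are counted from 1: 99.98% of 249682 positions in RefSeq promoters fell on a CpG when read so, and 56.2% when counted from 0. Chromosome 18 was left out of the promoter motif share. A run belonged to a gene start when it overlapped the window from 1000 bp before to 500 bp after it; with none there, as for Blcap and Commd1, the nearest run in the gene's window was taken. The level of a run is the mean over its positions. All runs were fitted with limma 3.58.1 (R 4.3.3) on percentage points, with Benjamini-Hochberg adjustment over all runs at 0.05. Paired differences and correlations used 100000 resamples (Python 3.11.15, numpy 2.4.6, scipy 1.17.1, pandas 2.3.3; figures with matplotlib 3.10.9). In simulated data a rhythm of 5 points was recovered in 24.5% and one of 10 points in 79.0% of runs of intermediate level. A 48 h trend of those sizes was recovered in 3.00% and 32.0%, and a 60 h shift in 0% and 8.00%, among 18447 runs. Many runs were changed at once, which eases the adjusted threshold, so these shares may be too high for a change in a few runs. Among the members only Mcts2 and Nap1l5 had an intermediate level.

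The members, gene lists and tests were chosen with earlier results of these data known. All 8 members were named. Other genes were named by the lists, and the 3 runs most like each of Mcts2, Nap1l5 and the start of Nnat by correlation. Marker lists for cell types gave, at starts, Des 10.8%, Acta1 10.1% and Myog 83.9% for muscle, Col1a2 30.2% and Pdgfra 63.5% for fibroblasts, Syn1 36.8% for neurons, and 0 of 2 measured genes each for endothelium and blood; a level is not expression.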

Additional observations from a re-analysis of the deposited data

How the results depend on the processing

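Alternatives were a value in at least 24 libraries, gaps of 100 bp, the M-value scale, the median over positions, positions 1 bp apart merged, the library mean as a covariate, periods of 20 h and 28 h, and each library left out. Across all of them 0 of the 9 runs passed for a rhythm, a time difference, a trend or 60 h against 12 h (smallest adjusted p 0.599, for 60 h minus 12 h at Mcts2 without replicate 3 of 60 h). Mcts2 minus H13 stayed between 38.2 and 40.2 points and Nap1l5 minus Herc3 between 67.0 and 68.0 points with 1 library left out. Nnat start minus body lay between 2.66 and 3.39 points in the same way, but with the median over positions it was 1.65 points and no longer passed (permutation p = 0.186). Positions of the start window alone were tried for the differences at Mcts2 and Nap1l5 alone, and both still passed. All positions of the Mcts2 and Nap1l5 runs already lay in that window, and few host positions dropped out. This trial therefore hardly changed the data and says little about how far the differences depend on the processing. The replicate numbers were not used to pair the libraries in the main fits. Deviations of equally numbered libraries correlated at most at 0.0378, with means of 0.00522, 0.00193 and 0.00751 for numbers 1, 2 and 3 (36 pairs each). Those of different numbers correlated at most at 0.0388, with a mean of -0.00242 (216 pairs). For 12 of 27 libraries the best correlation was with their own number. The count that unrelated numbers would give was not worked out, so this count is a description. With the replicate block 0 of 9 runs passed in each test.

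Signs of several slopes and of small 60 h minus 12 h differences, none of which passed, turned with the processing; the cause was not tested. With the median over positions the slope was 2.46 at H13 and 0.514 at Herc3, and 60 h minus 12 h was 1.60 at H13, 1.06 at Herc3 and 0.263 at Inpp5f. With positions 1 bp apart merged the H13 slope was 0.252, and with at least 24 libraries the slope upstream of Nnat was -4.66. With 1 library left out, slopes ran from -1.11 to 0.492 at H13, from -2.09 to 1.95 upstream of Nnat and from -0.665 to 0.322 at Trappc9. In the same way 60 h minus 12 h ran from -0.767 to 0.359 at Herc3, from -3.38 to 1.14 at the start of Nnat and from -0.840 to 0.499 at Inpp5f.

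The correlation of Nap1l5 with Nnat was 0.102 on deviations from time point means and -0.116 to 0.0408 with 1 library left out. That of Mcts2 with Nnat ran from -0.488 to -0.162, the last without replicate 1 of 60 h (permutation p = 0.410). That of Nap1l5 with the library mean was 0.479 on deviations from time point means (permutation p = 0.0115), and ran from 0.199 to 0.479, the highest without replicate 3 of 48 h. The depth behind each level is unknown.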

Other observations

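Zrsr1, a retrocopy of the X-linked splicing factor gene Zrsr2 that lies within Commd1, a gene of copper balance, is another pair of this kind. Its promoter (chr11:22971755-22972054, plus strand, GRCm38.p6) had 7 of 10 CpGs measured and that of Commd1 (chr11:22982235-22982534, minus strand) 12 of 18, marked by capitals.
Zrsr1: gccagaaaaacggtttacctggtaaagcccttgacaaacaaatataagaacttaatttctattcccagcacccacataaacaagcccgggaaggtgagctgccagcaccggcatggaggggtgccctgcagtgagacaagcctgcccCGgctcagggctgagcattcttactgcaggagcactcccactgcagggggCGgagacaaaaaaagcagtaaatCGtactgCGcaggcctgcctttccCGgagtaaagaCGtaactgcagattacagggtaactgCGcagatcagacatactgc
Commd1: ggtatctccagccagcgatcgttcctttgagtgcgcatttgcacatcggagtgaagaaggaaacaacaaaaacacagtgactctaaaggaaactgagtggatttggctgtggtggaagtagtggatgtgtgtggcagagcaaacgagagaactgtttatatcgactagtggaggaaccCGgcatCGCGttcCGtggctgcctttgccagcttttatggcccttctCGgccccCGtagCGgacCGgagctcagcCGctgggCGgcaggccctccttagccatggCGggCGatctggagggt
The Zrsr1 run (chr11:22971902-22973169, 88 positions) had a level of 44.2% ± 4.79 (SD, n = 27). The run over this Commd1 promoter (chr11:22981763-22982356, 40 positions) had 3.75% ± 1.95 (SD, n = 27). It lies 2183 to 2776 bp past the annotated gene start of Commd1, which itself had no run. Another RefSeq promoter of Commd1 (chr11:22972817-22973116, minus strand) lies inside the Zrsr1 run. It had 14 of 17 CpGs measured, with position means from 39.1% to 51.5%, so not every listed host promoter was low. The difference was 40.4 ± 5.59 points, with Zrsr1 higher in 27 of 27 libraries (not tested). This was close to the difference of 39.1 points at Mcts2 and H13, and Mcts2 minus Zrsr1 was -2.42 ± 9.04 points. Within the Zrsr1 run the level was uneven, with 73.6% ± 12.5 at 200 to 299 bp past the start, against 21.0% ± 23.2 at 400 to 499 bp (higher in 26 of 27 libraries). TGCCGC did not occur in the printed Zrsr1 promoter and occurred once, in reverse, in that of Commd1, where its CpG had a mean of 3.21%.

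Of the X-linked genes related to these retrogenes, Mcts1 had 9.56% ± 3.38 over 8 positions, Nap1l3, a relative of Nap1l5, 17.4% ± 7.08 over 19 positions, and Zrsr2 37.0% ± 7.81 over 94 positions (SD, n = 27). The median of all 544 X-linked runs was 35.3% and that of the 17903 autosomal runs 5.76%.

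For each of Mcts2, Nap1l5 and the start of Nnat, the 3 autosomal runs whose levels followed it most closely over the 27 libraries were sought. The search covered 17384 runs outside the 9 runs and chromosome 18. The closest lay in Ticrr (Pearson r = 0.70), Bcl6b (0.68) and Nrxn3 (0.68) for Mcts2. They lay in Srcap (0.72), Septin1 (0.70) and Smpdl3a (0.69) for Nap1l5, and in Kcnj1 (0.71), Paox (0.68) and Prdm1 (0.67) for Nnat. These values are the highest of many and carry no test. Some of these runs had low levels with a small spread, so a high r there does not mean a like level. Ticrr stood at 4.30% ± 1.51, Srcap at 1.56% ± 1.35 and Septin1 at 1.87% ± 0.751 (SD, n = 27). Others were high, as Kcnj1 at 73.7% ± 19.6.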
